A study of Mus musculus and Homo sapiens with 8 samples.

Results

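The genes described here are the mouse collagen and laminin chains, taken as every entry of the deposited expression table whose symbol is Col, a number, a and a number, or Lama, Lamb or Lamc with a digit. Of 13359 genes in the table, 28 chosen by this rule are described, 21 collagens and 7 laminins. A further 26 genes of these names in RefSeq's mouse gene table were not analysed here, since every gene of the deposited table has a mean of at least 1 FPKM in one or both groups (FPKM is reads scaled by gene length and library total). Expression was measured by RNA-seq in crypt cells of the small intestine from untreated C57BL/6 mice aged 2 months. Controls carried the allele labelled APCmin+, a truncation of the Wnt pathway regulator Apc that leads to intestinal adenomas, and the other group carried APCmin+; Zmynd8IEC-/-, a loss of the chromatin reader Zmynd8 in the intestinal epithelium. There were 2 libraries in each group, each an equal-mass pool of RNA from 3 mice. No group without the Apc allele was included, and the sources used here do not give the driver of the deletion. No source says how the pools of a group were kept apart, and p-values measure only the spread between pools.

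Collagens and laminins are secreted, trimeric proteins of the extracellular matrix. Fibrillar collagens (types I, III and V) form the fibres of connective tissue and are made mainly by fibroblasts. Type IV collagen and the laminins form the 2 networks of the basement membrane, the sheet on which the gut epithelium rests. Lama3 and Lamb3 encode the alpha 3 and beta 3 chains of a laminin that epithelial cells make themselves and that anchors them through integrin alpha 6 beta 4. The 28 genes were divided into 2 epithelial adhesion chains (Lama3 and Lamb3), 10 other basement membrane chains, 6 fibrillar chains and 10 other collagens.

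Zmynd8 RNA, which should check the labels, was 6.94 and 4.73 FPKM in the controls, against 7.30 and 7.65 FPKM in the other group (log2 fold change 0.33, limma adjusted p = 0.293). The gene-level value does not show which exons were present, so that group is called the knockout-labelled libraries. Library totals ran from 44718091 to 48778712 reads. Over all 12948 genes tested the log2 fold change had a median of -0.15, and scaling the libraries by median ratios moved it by 0.15. Defining markers of epithelium were high (Epcam 976 to 1315 FPKM). All 10 fibroblast, 7 smooth muscle, 9 endothelial and 9 immune markers looked for were also in the table, and 6 markers of glia and neurons were not analysed. In bulk RNA, fewer cells of a type and less RNA per cell cannot be told apart.

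Promoter sequence was taken from RefSeq (build GRCm38.p6) for 20 of the 28 genes, as windows from 250 bases before to 50 bases after a start site. Windows of 3 genes are printed 5′ to 3′, one for each pattern of levels described later: Lamb3 for the epithelial chains, Col3a1 (type III collagen) for the fibrillar chains, and Col6a1 for type VI collagen. Capitals mark matches on either strand to GGAATG, the core site of the TEAD factors through which YAP acts, to the AP-1 site TGANTCA and to the TATA box TATAAA.
Lamb3 (chr1:193301993-193302292, plus strand, one of 2 windows): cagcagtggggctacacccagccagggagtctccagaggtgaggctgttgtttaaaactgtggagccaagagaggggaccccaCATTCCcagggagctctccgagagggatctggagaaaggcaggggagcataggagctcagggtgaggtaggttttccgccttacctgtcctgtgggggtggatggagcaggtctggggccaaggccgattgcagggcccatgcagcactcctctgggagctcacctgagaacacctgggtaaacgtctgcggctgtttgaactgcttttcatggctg
Col3a1 (chr1:45311288-45311587, plus strand): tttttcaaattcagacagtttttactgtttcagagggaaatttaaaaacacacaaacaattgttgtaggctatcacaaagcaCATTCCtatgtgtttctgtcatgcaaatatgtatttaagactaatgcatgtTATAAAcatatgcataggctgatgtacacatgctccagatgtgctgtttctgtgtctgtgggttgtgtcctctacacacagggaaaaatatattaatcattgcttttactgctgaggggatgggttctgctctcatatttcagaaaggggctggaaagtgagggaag
Col6a1 (chr10:76725995-76726294, minus strand): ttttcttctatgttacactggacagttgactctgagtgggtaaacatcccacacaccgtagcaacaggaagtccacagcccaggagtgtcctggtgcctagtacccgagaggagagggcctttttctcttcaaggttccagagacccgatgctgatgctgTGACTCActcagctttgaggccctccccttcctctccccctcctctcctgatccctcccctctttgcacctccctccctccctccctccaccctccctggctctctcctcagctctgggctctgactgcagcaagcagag

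Across the 23 windows of the 20 genes, GGAATG was present in 5 (21.7%, against 14.7% of 32851 RefSeq windows of this length), in Lamb3, Col3a1, Col6a2, Col18a1 and Col20a1. TATAAA was present in the Col3a1 window alone (4.35%, against 13.6% of all windows). The GC box GGGCGG was present in 14 windows (60.9%, against 35.7%), CCAAT in 8 (34.8%, against 37.4%) and the AP-1 site TGANTCA in 1, that of Col6a1 (4.35%, against 7.81%). The 23 windows had a median of 59.7% G and C bases, against 52.7% for all windows, and its part in these shares was not tested. Windows of Col4a1 and Col4a2 share 78 bases. The Lamb3 window that is not printed (chr1:193301744-193302043) held none of the 5 searched motifs. Both Lamb3 windows lie downstream of the start of the deposited Lamb3 entry (193294353). No searched motif holds another, and a match is a description of the window, not a binding site.

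The epithelial laminin chains had the lowest log2 fold changes of the 27 genes tested. Medians of the fibrillar and the other basement membrane chains (-0.17 and -0.16) lay near that of all genes (-0.15). Without control replicate 1 these 2 medians were 0.22 and 0.17, against -0.11 for all genes. The other collagens had a median of 0.17, with single genes as low as -0.58 (Col12a1). Col9a3, not tested, had a control mean 34.1 times the other, with its high value in 1 library. Lama3 (chromosome 18, 12333718 to 12583013, plus strand) was measured at 18.5 and 11.8 FPKM in control replicates 1 and 2, against 5.29 and 4.57 FPKM in knockout-labelled replicates 1 and 2. The groups did not overlap, and the control mean was 3.08 times the other (15.2 ± 4.75 against 4.93 ± 0.515 FPKM, SD, n = 2 each). On the log2(FPKM + 1) scale the fold change was -1.42 (SE 0.23, 95% interval -2.02 to -0.82), which did not pass limma's test across all genes (adjusted p = 0.0767).

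Lamb3, the beta chain of the same laminin (chromosome 1, 193294353 to 193343878, plus strand), had control levels of 37.4 and 22.6 FPKM and knockout-labelled levels of 15.9 and 7.19 FPKM. Here too the groups did not overlap, but on the log2(FPKM + 1) scale the knockout-labelled libraries lay 1.04 apart and the controls 0.70. Its log2 fold change of -1.35 had an SE of 0.49 and a 95% interval of -2.79 to 0.08 (limma adjusted p = 0.199).

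Without control replicate 1 the log2 fold changes were -1.11 for Lama3 and -1.0 for Lamb3. Without control replicate 2, which leaves a lone control assumed to vary like the other group, Lama3 passed at -1.72 (limma adjusted p = 0.019) and Lamb3, at -1.71, did not (limma adjusted p = 0.193).

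In the authors' deposited table Lama3, Lamb3 and Col9a3 had p-values of 0.0216, 0.00435 and 0.0249 with q-values of 0.998, 0.288 and 1. None of the 28 genes described had a deposited q-value under 0.05, where 0.876% of all genes were lower and 1.26% higher by that rule. Lama3 and Lamb3 were the 2 of the 27 tested with a log2 fold change of -1 or lower, a level reached by 1.75% of all genes tested. They were chosen as a class by their role, with earlier results of these data known, and no test of the class was made.

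**Figure D1:**
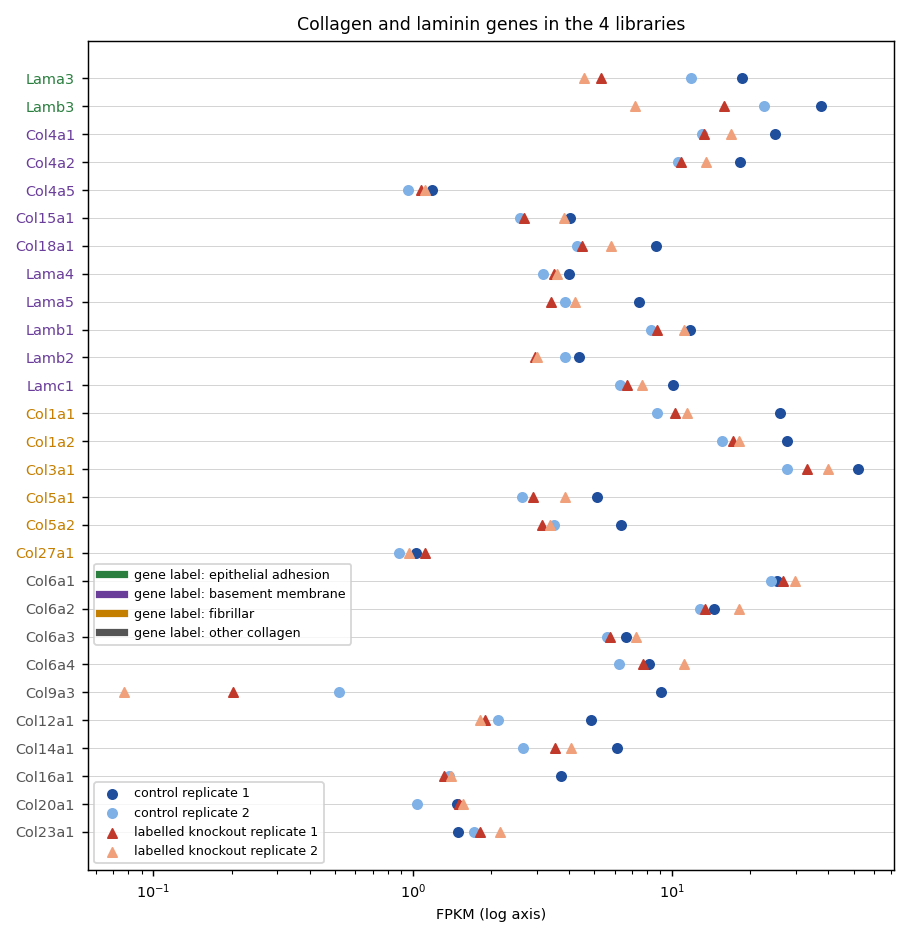
FPKM of each of the 28 collagen and laminin genes in the 4 libraries, on a log axis; circles are controls, triangles are knockout-labelled libraries, and the colour of a gene's name gives its class. For Lama3 and Lamb3 both triangles lie below both circles, while for most other genes the dark circle of control replicate 1 stands alone on the right.

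By limma 0 of the 27 genes tested were called in either direction, where 0.131% of all genes were called lower and 0.595% higher. Voom on recovered reads also called 0. At an unadjusted limma p under 0.05 there were 2 lower members, Lama3 and Lamb2 (against 19.1% of all genes), and 0 higher (against 7.49%). Col9a3 was not tested, because only 1 library reached 1 FPKM. Of the 27, 19 had a negative log2 fold change, or 70.4% against 71.7% of all genes, with a median of -0.11 against -0.15. Fewer members than genes in general lay lower in all 4 pairings of libraries: 5 did, or 18.5%, against 48.5% of all genes. These were Lama3, Lamb3, Lamb2, Col5a2 and Col12a1. Another 3 lay higher in all pairings (Col6a1, Col20a1 and Col23a1), or 11.1%, against 14.9%.

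**Figure D2:**
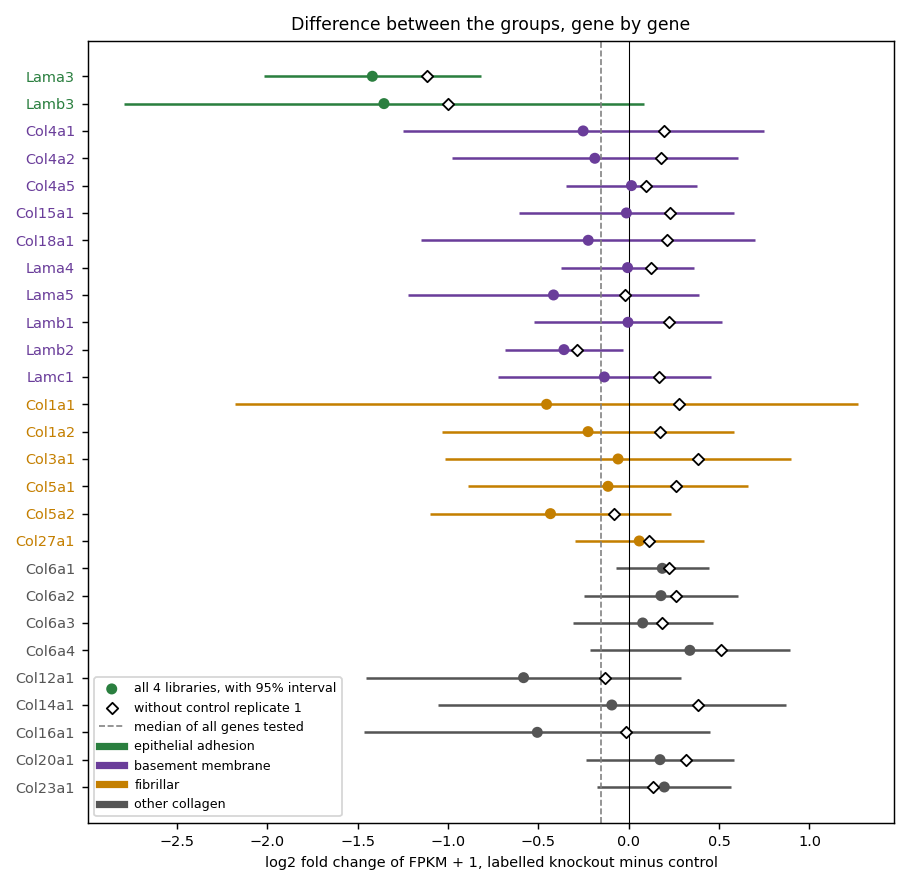
Log2 fold change of FPKM + 1 (knockout-labelled libraries minus control) for the 27 genes tested, with 95% intervals; open diamonds give the value without control replicate 1, and the dashed line the median of all genes tested, -0.15. Intervals of Lama3 and Lamb2 alone stay below 0, and without control replicate 1 most collagens move to the right of 0.

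The 2 control libraries differed more from each other in the collagen and laminin genes than in genes in general. Control replicate 1 exceeded control replicate 2 in 26 of the 27 genes, or 96.3%, where 64.5% of all genes did, and it was the highest of the 4 libraries in 20, or 74.1%, against 50.0% of all genes. The median log2 difference between control replicates 1 and 2 was 0.77 for fibrillar chains, 0.54 for basement membrane chains, 0.66 for epithelial chains and 0.29 for the other collagens, against 0.08 for all genes. A log2 difference of at least 1 between them was found for Col1a1, and in 2.40% of all genes. Leaving out control replicate 1 cut the negative log2 fold changes from 19 to 7, while 66.4% of all genes were negative without it. Leaving out control replicate 2 instead gave 6 lower calls by limma among the 27 (Lama3, Col1a1, Col1a2, Col5a2, Col12a1 and Col16a1), where 4.04% of all genes were called lower.

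The 7 genes in which another library was highest were Col6a1, Col6a2, Col6a3, Col6a4, Col20a1, Col23a1 and Col27a1.

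**Figure D3:**
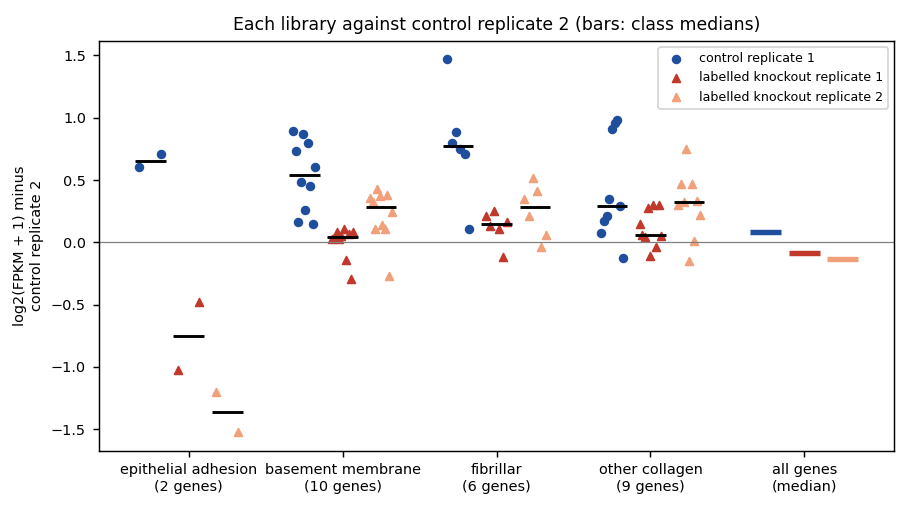
Difference of log2(FPKM + 1) between each library and control replicate 2, 1 point a gene and library, with black bars for class medians; coloured bars on the right are medians of all 12948 genes tested. Control replicate 1 lies above 0 in every class median, and the knockout-labelled libraries lie clearly below 0 in the epithelial class only, at -0.75 and -1.36.

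Among fibrillar chains, Col1a1 (chromosome 11, 94936224 to 94953042, plus strand), which encodes the alpha 1 chain of type I collagen, varied most. Its levels were 25.9 and 8.73 FPKM in the controls, against 10.3 and 11.4 FPKM under the knockout label. Control replicate 1 stood at 2.97 times control replicate 2, and both knockout-labelled libraries lay between the controls. Its log2 fold change was -0.45, with a 95% interval of -2.18 to 1.27 (SE 0.57, limma adjusted p = 0.64). It was 0.28 without control replicate 1 and -1.19 without control replicate 2. Its partner chain gene Col1a2 (chromosome 6, 4505618 to 4541543) had control levels of 27.7 and 15.5 FPKM and knockout-labelled levels of 17.1 and 18.1 FPKM, again between the controls. Its log2 fold change was -0.23 (SE 0.29), with 0.17 and -0.62 without control replicates 1 and 2 in turn.

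Col3a1 (chromosome 1, 45311538 to 45349706, plus strand) was the most abundant of the 28 genes, with control levels of 51.9 and 27.6 FPKM and knockout-labelled levels of 33.0 and 39.98 FPKM. The latter again lay between the controls. Its log2 fold change was -0.06 (SE 0.34), with 0.38 and -0.50 without control replicates 1 and 2 in turn. Col5a2, a type V chain that starts fibrils and whose gene lies 24624 bases from Col3a1, gave 6.35, 3.51, 3.15 and 3.38 FPKM in the same order of libraries. For this gene the groups did not overlap, by a narrow margin (log2 fold change -0.43, SE 0.26; -0.08 without control replicate 1 and -0.79 without control replicate 2). Col5a1, the other type V chain, gave 5.12, 2.63, 2.91 and 3.84 FPKM (-0.11, with 0.26 and -0.49 in the same order). Col27a1 was near 1 FPKM in all 4 libraries (0.888 to 1.11). The median of the 6 fibrillar chains was -0.17. It was 0.22 without control replicate 1 and -0.56 without control replicate 2.

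Among basement membrane chains, Col4a1 (chromosome 8, 11198423 to 11312826, minus strand) had control levels of 24.9 and 13.0 FPKM, against 13.3 and 16.9 FPKM in the other group. Its neighbour Col4a2 (11312805 to 11449287, plus strand) had 18.2 and 10.5 FPKM, against 10.8 and 13.4 FPKM. These genes encode the partner chains of type IV collagen and lie head to head, with RefSeq start sites 21 bases apart. Both kept the same order of libraries, and their ratio stayed between 1.23 and 1.37 in all 4. Log2 fold changes were -0.25 (SE 0.35) and -0.19 (SE 0.29), or 0.19 and 0.18 without control replicate 1 and -0.70 and -0.55 without control replicate 2. Their entries overlap by 22 bases on opposite strands, and any use of strand in counting is not given. Col4a5, a type IV chain on the X chromosome, had 0.957 to 1.19 FPKM.

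Lama5, the alpha chain of the main laminin under mature gut epithelium, had control levels of 7.43 and 3.86 FPKM, against 3.39 and 4.23 FPKM in the other group. The groups overlapped (log2 fold change -0.42 with an SE of 0.30, limma adjusted p = 0.409), and the value was -0.02 without control replicate 1 and -0.81 without control replicate 2 (limma adjusted p = 0.0612). The partner chains Lamb1 and Lamc1, shared by most laminins, had 8.29 to 11.7 and 6.27 to 10.04 FPKM, with log2 fold changes of -0.0043 and -0.14 that became 0.22 and 0.17 without control replicate 1 and -0.23 and -0.44 without control replicate 2. Lama4, a chain of vessel and muscle basement membranes, had 3.18 to 4.0 FPKM (-0.01).

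Lamb2, a beta chain found in many mature basement membranes, was the member of this class with the smallest spread within groups relative to the difference between them. Control levels were 4.39 and 3.86 FPKM and knockout-labelled levels 2.96 and 3.02 FPKM, with no overlap. Its log2 fold change of -0.36 had an SE of 0.13 and a 95% interval of -0.68 to -0.03 (limma adjusted p = 0.167). The multiplexin genes Col15a1 and Col18a1, whose products sit at the stromal side of basement membranes, had 2.60 to 4.02 and 4.28 to 8.66 FPKM (-0.01 and -0.22). Of the 10 basement membrane chains 9 were negative with a median of -0.16, and 2 were negative with a median of 0.17 when control replicate 1 was left out. When control replicate 2 was left out instead, all 10 were negative with a median of -0.43.

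Type VI collagen, a beaded filament that links cells to the stroma, was close to even between the controls, with ratios of replicate 1 to replicate 2 from 1.06 to 1.31. Lamb2 (1.14), Col27a1 (1.16), Col4a5 (1.24) and Lama4 (1.26), of other classes, lay in the same range. Col6a1 had control levels of 25.4 and 24.1 FPKM and knockout-labelled levels of 26.8 and 29.8 FPKM. Both of the latter lay above both controls (log2 fold change 0.19, SE 0.10, 95% interval -0.07 to 0.44, limma adjusted p = 0.29). Col6a2, whose gene lies 85166 bases from Col6a1 on chromosome 10, gave 14.5, 12.8, 13.4 and 18.1 FPKM in the same order. Col6a3 gave 6.63, 5.58, 5.78 and 7.25 FPKM, and Col6a4 gave 8.16, 6.21, 7.72 and 11.1 FPKM. All 4 had positive log2 fold changes (0.08 to 0.34), and knockout-labelled replicate 2 was the highest of the 4 libraries for each; without it Col6a2 and Col6a3 turned to -0.02 and -0.06.

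Col12a1, Col14a1 and Col16a1, whose products bind to the surface of fibrils, were highest in control replicate 1. Col12a1 had control levels of 4.86 and 2.13 FPKM and knockout-labelled levels of 1.90 and 1.81 FPKM (log2 fold change -0.58, SE 0.33, with -0.13 and -1.04 without control replicates 1 and 2 in turn). Col16a1 gave 3.72, 1.38, 1.32 and 1.4 FPKM (-0.51, with -0.01 and -1.0 in the same order), so that 3 libraries were alike and 1 stood apart. Col14a1 gave 6.13, 2.67, 3.52 and 4.08 FPKM (-0.09, with 0.39 and -0.57). Col20a1 and the membrane-spanning Col23a1 had 1.03 to 2.16 FPKM in all libraries, with log2 fold changes of 0.17 and 0.20.

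Col9a3, a chain of the cartilage-associated type IX collagen, was the most uneven. It was measured at 9.02 FPKM in control replicate 1, 0.518 FPKM in control replicate 2, then 0.203 and 0.0773 FPKM under the knockout label, from 1197, 75, 28 and 11 reads. The controls differed by a ratio of 17.4, and the high value was that of 1 library.

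Chain ratios within a library do not depend on its scaling. Lama3 over Lama5 was 2.50 and 3.06 in control replicates 1 and 2, against 1.56 and 1.08 in the other group, and Lamb3 over Lamb1 was 3.19 and 2.72 against 1.82 and 0.649. In both of these ratios of an epithelial chain to its general counterpart the groups did not overlap. Of the 11 ratios computed, 3 others also did not overlap. Col6a3 over Col6a2 was 0.456 and 0.436 against 0.431 and 0.401, Col3a1 over Col1a2 was 1.88 and 1.78 against 1.93 and 2.20, and Col5a1 over Col5a2 was 0.806 and 0.751 against 0.925 and 1.14. The two-sided exact permutation p was 0.333 for each of the 5, which is the smallest that 2 against 2 libraries allow.

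Between the epithelial chains, Lamb3 over Lama3 ran from 1.58 to 3.00. Col1a1 over Col1a2 was 0.937 in control replicate 1 and 0.563 to 0.627 elsewhere. Lamb1 over Lamc1 stayed between 1.17 and 1.45, and Col6a1 over Col6a2 between 1.65 and 2.00.

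**Figure D4:**
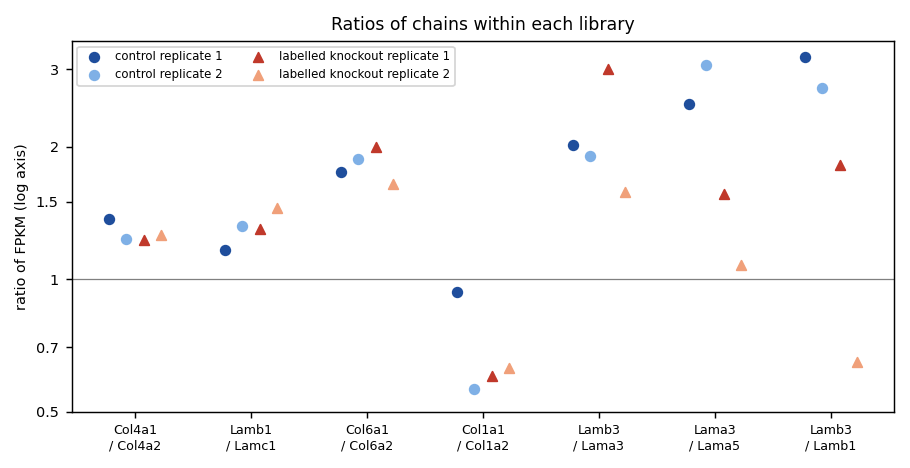
Ratio of the FPKM of 2 chains within each library, on a log axis, with circles for controls and triangles for knockout-labelled libraries. The ratio of Col4a1 to Col4a2 stays within 1.23 to 1.37, while Lamb3 to Lamb1 runs from 0.649 to 3.19 with both triangles below both circles.

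Markers of cell types were set beside these values, and their part in the results was not tested. Per 100 FPKM of the epithelial surface gene Epcam, Lama3 was 1.55 and 0.899 in control replicates 1 and 2, against 0.536 and 0.468 in the other group. Lamb3 stood at 3.13 and 1.72 against 1.61 and 0.737. With Epcam the order of the groups was thus the same as without division, though for Lamb3 1.72 and 1.61 lay close. Krt18 and Krt19 had lower log2 fold changes than Epcam (-1.10 and -0.85, against -0.35). Krt18 stood at 347 and 192 FPKM in the controls, against 131 and 111 FPKM in the other group. Division by Krt18 or Krt19 was not made, so the order found with Epcam cannot be extended to them. Of the 9 epithelial markers 8 had negative log2 fold changes (median -0.35, 0 called), with summed levels of 6832 and 7396 FPKM in the controls and 6031 and 5656 FPKM in the others. All 10 enterocyte markers were positive (median 1.65, 3 called higher by limma, as were 0.595% of all genes). All 6 crypt stem and Paneth cell markers were negative (median -0.53), with Mmp7 the 1 called lower, as were 0.131% of all genes. Over all genes tested 71.7% were negative, with a median of -0.15. Lgr5 stood at 14.8 FPKM in control replicate 1 and at 2.74 to 3.48 FPKM elsewhere, and Lyz1 overlapped between the groups. With the replicate number as a block, or without either knockout-labelled library, 0 of all genes were called in either direction. These marker calls were then lost. Over all genes, 1 was called higher without the filter on low values and 2 with a filter at a mean of 5, with 0 lower in both. Not all of the 3 enterocyte calls, nor that of Mmp7, could then remain.

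Fibroblast markers had summed levels of 180.2 and 144 FPKM in the controls, against 136 and 121 FPKM under the knockout label, with control replicate 1 the highest in 8 of 10 (median log2 fold change -0.29, 0 called). The collagen-binding proteoglycan gene Dcn was at 53.6, 40.6, 41.8 and 32.02 FPKM. Per 100 FPKM of Dcn, Col1a1 was 48.4 and 21.5 in control replicates 1 and 2, against 24.6 and 35.5, with control replicate 1 the highest. For the other 3 collagens divided in this way, knockout-labelled replicate 2 was the highest, and Dcn itself was lowest in that library. Col1a2 was 51.7 and 38.2 against 40.9 and 56.7, and Col3a1 was 96.9 and 67.95 against 78.95 and 125. Col6a1 was 47.4 and 59.2 against 64.1 and 93.02, higher in all pairings. Of the 10 fibroblast markers, 4 were higher in knockout-labelled replicate 2 than in replicate 1. Division by fibroblast markers other than Dcn was not made, so these orders are shown for Dcn only. Smooth muscle markers had summed levels of 338 and 749 FPKM in the controls, against 459 and 374 FPKM. All 7 were higher in control replicate 2 than in control replicate 1. Endothelial markers had summed levels of 64.7 and 50.2 FPKM against 55.4 and 69.8 FPKM, and immune markers 156 and 123 against 143 and 108 FPKM.

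**Figure D5:**
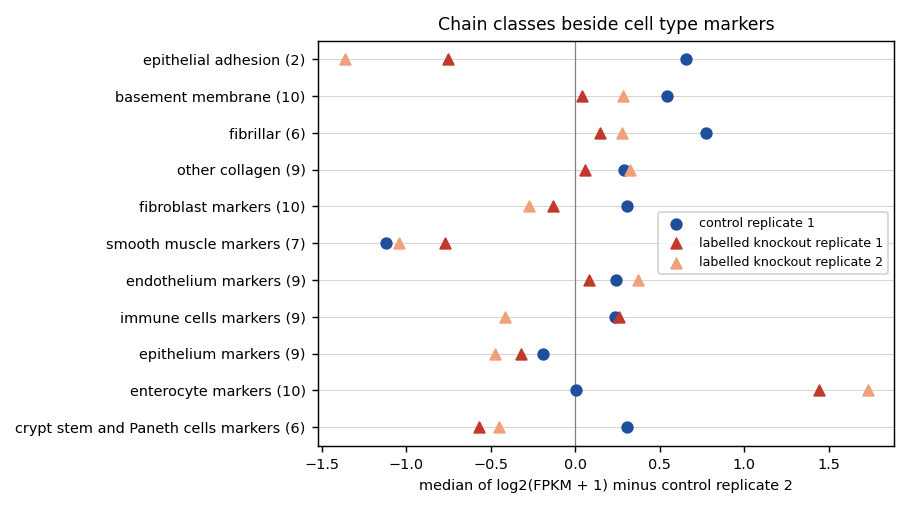
Median over each set of the difference of log2(FPKM + 1) from control replicate 2, for the 4 chain classes and 7 marker lists, with the number of genes tested in parentheses. Control replicate 1 lies at 0.77 for fibrillar chains, 0.31 for fibroblast markers and -1.12 for smooth muscle markers.

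Collagen-modifying and secretory genes gave no called member among 17 tested (14 negative, median log2 fold change -0.17). Beside this and the related lists that follow, 71.7% of all genes tested were negative, with a median of -0.15. P4hb, the protein disulfide isomerase that is also a subunit of prolyl hydroxylase, had 522 ± 9.64 FPKM in controls, against 759 ± 96.3 FPKM (SD, n = 2 each; 0.53, limma adjusted p = 0.121). Creb3l1, a transcription factor gene of collagen secretion, had 15.9 ± 3.46 and 9.54 ± 0.805 FPKM (-0.67, limma adjusted p = 0.116). Of 5 processing and crosslinking genes all were negative (median -0.36, 0 called), among them Bmp1, which cleaves procollagen ends (-0.44, limma adjusted p = 0.168), and the transglutaminase gene Tgm2 (-0.64, limma adjusted p = 0.184).

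Of 11 matrix protease and inhibitor genes tested, 1 was called, where 0.131% of all genes were called lower and 0.595% higher. Mmp7, a metalloproteinase of Paneth cells, fell from 166 ± 33.4 to 46.5 ± 1.28 FPKM (SD, n = 2 each; log2 fold change -1.80, SE 0.16, limma adjusted p = 0.0417). This call was lost with the replicate number as a block, without the filter on low values and with a filter at a mean of 5. It was also lost without either knockout-labelled library. In each of these settings 0 genes were called lower in all. The list had 7 negative and 4 positive values around a median of -0.12. The collagenase genes Mmp14 and Mmp13 stood at 36.7 and 11.2 FPKM in control replicate 1 and at 10.2 to 10.9 and 2.84 to 3.93 FPKM in the other 3 libraries. Their log2 fold changes of -0.90 and -0.72 became -0.07 and 0.04 without that library. For Timp2, of the same list, -0.38 (limma adjusted p = 0.139) became -0.32 without it. Timp1, the metalloproteinase inhibitor gene, was at 5.88 FPKM in control replicate 1 and at 0.484 to 0.960 FPKM elsewhere, was not tested for that reason, and was chosen after its values were seen.

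Of 13 receptor and anchorage genes tested 9 were negative (median -0.12, 0 called), where 71.7% of all genes were, with a median of -0.15. Itgb1, the beta subunit common to most collagen and laminin receptors, had 94.5 ± 4.41 FPKM in controls, against 66.9 ± 3.84 FPKM (SD, n = 2 each; -0.49, SE 0.10, limma adjusted p = 0.0956). The collagen receptor gene Itga2 gave -0.85 (limma adjusted p = 0.142) and Bcam, a receptor for laminin alpha 5, -0.61 (limma adjusted p = 0.144). Itga6 and Itgb4, the receptor of the epithelial laminin, gave 0.24 and -0.28 (limma adjusted p = 0.254 and 0.276), so their values did not share one direction. Of 10 basement membrane partners 7 were negative (median -0.07, 0 called). The fibulin gene Fbln1 had 23.3 ± 4.64 and 49.3 ± 10.5 FPKM (1.05, limma adjusted p = 0.0954) and the proteoglycan gene Agrn gave 0.37 (limma adjusted p = 0.13). All 9 genes of other fibrous matrix proteins were negative (median -0.24, 0 called), with Fn1, fibronectin, at 25.6, 13.5, 11.2 and 13.1 FPKM. Postn, with the smallest unadjusted p of this list, was instead highest in control replicate 2, at 10.3, 13.5, 9.84 and 8.10 FPKM. Its log2 fold change was -0.37 (limma adjusted p = 0.231), and -0.55 without control replicate 1. Of the 9, 6 were negative with median-ratio scaling and 5 without control replicate 1.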

How the data were processed

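Per the file headers, the authors deposited per-library expression values, group means, log2 fold changes, p-values and q-values for each gene. Of aligners and builds, the submitters' processing notes mention HISAT2, BWA and SICER, with mm10 (mouse) and hg38, and assign none a role. The sources used here do not give how reads were counted, on which annotation, with or without strand, or which test the authors ran. The deposited values were read as FPKM, since 1 length per gene and 1 total per library turned them into whole reads within 0.002 for all 13359 genes. Gene coordinates are those of the deposited table. Of 13527 entries, 168 exact repeats were dropped. Unused per-sample columns numbered 0, and 4 ChIP-seq libraries were not analysed here.

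Genes reaching 1 FPKM in 2 or more libraries were tested with limma 3.58.1 (R 4.3.3) on log2(FPKM + 1), with trend and robust moderation and genotype as the only term. Changes of low genes are understated on this scale. P-values were adjusted by Benjamini-Hochberg over 12948 genes (threshold 0.05). Residual degrees of freedom were 2. The test and the read recovery were checked on simulated data. Alternatives were the replicate block, another pseudocount, other filters and scalings, no trend, voom, and each library left out. Any family member could be named, and from each related list the 6 measured genes with the smallest unadjusted p, or fewer. Of the 29 genes that match the rule, 1 is not reported here, and no count, median or plot of the family holds it. Members, classes and lists were chosen with earlier results of these data known. Replicate numbers have no stated meaning in the labels.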

Additional observations from a re-analysis of the deposited data

How the results depend on the processing

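Results were recomputed under 12 alternatives. Lama3 and Lamb3 stayed negative in all of them, between -1.72 and -1.11 and between -1.88 and -0.83. Over all genes, the 77 higher and 17 lower calls became 0 and 0 with the replicate block, 1 and 0 without a filter, 2 and 0 with a filter at a mean of 5, 41 and 9 without the trend, and 123 and 27 with voom. Lower calls became 4 with median-ratio scaling and 5 with quantile normalization. The libraries share only a number: deviations of same-numbered libraries correlated at 0.045 across 12948 genes, and the replicate block called 0 of the 27 genes described. Leaving out each library gave 0 to 277 higher and 0 to 523 lower calls over all genes, and 0 to 6 lower calls among the 27 genes, the 6 being Lama3, Col1a1, Col1a2, Col5a2, Col12a1 and Col16a1 without control replicate 2.

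Negative values among the 27 genes, 19 in all, numbered 12 with median-ratio scaling and 13 with quantile normalization. Over all 12948 genes tested, 6645 and 6971 were negative under these scalings. Among the members, 10 of the 14 left at a mean of 5 were negative, and 7 to 21 with a library left out. The median of other collagens ran from -0.025 to 0.22 in the same way. Median-ratio scaling reversed Col15a1 (0.12), Lama4 (0.13), Lamb1 (0.15), Lamc1 (0.019), Col3a1 (0.11), Col5a1 (0.023) and Col14a1 (0.047). Quantile normalization reversed Col15a1 (0.15), Lama4 (0.17), Lamb1 (0.15), Lamc1 (0.024), Col5a1 (0.054) and Col14a1 (0.074), and voom Lamb1 (8.14e-05). Leaving out each library in turn reversed the following members, over these ranges: Col4a1 -0.70 to 0.19, Col4a2 -0.55 to 0.18, Col4a5 -0.065 to 0.10, Col15a1 -0.25 to 0.23, Col18a1 -0.66 to 0.21, Lama4 -0.14 to 0.12, Lamb1 -0.23 to 0.22, Lamc1 -0.44 to 0.17, Col1a1 -1.19 to 0.28, Col1a2 -0.62 to 0.17, Col3a1 -0.50 to 0.38, Col5a1 -0.49 to 0.26, Col6a2 -0.025 to 0.38, Col6a3 -0.065 to 0.22 and Col14a1 -0.57 to 0.39. All but Col4a5, Col6a2 and Col6a3 reversed without control replicate 1, and Col15a1, Lama4, Lamb1, Col3a1 and Col5a1 also without knockout-labelled replicate 1. Col4a5 and Col6a3 reversed without control replicate 2, and Col6a2 and Col6a3 without knockout-labelled replicate 2. The cause was not tested. Col9a3 rested on 11 to 1197 reads and Col4a5 on 306 to 349, and counting error was not set against the spread between pools.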
